A study of Mus musculus with 16 samples.

Results

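Collagens are the main structural proteins of the extracellular matrix, and their genes are described here in the dorsal hippocampus. Members were the protein-coding genes whose symbol has the form Col, number, a, number in the GENCODE mouse annotation. The rule found 44 genes, all of them in the table of 35328 genes, and all 44 had reads in at least 1 library. Of these, 43 passed the filter on low counts, as did 17830 genes in all. The exception was Col10a1, with 0 to 9 reads per library, and it entered no test.

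The RNA-Seq libraries came from dorsal hippocampi of 16 male mice of the strain C57Bl6/J, with 4 mice in each of 4 groups and 1 library per mouse. Mice drank either plain water or caffeine at 0.3 g/L for 2 weeks, begun at 8 to 9 weeks of age. Under each drink 4 mice stayed in the home cage, and the other 4 (called learning mice) learned a spatial task, the Morris water maze, over 3 days and were sampled 1 hour later. The groups are named by housing and drink, such as home cage water, and a mouse by its number in the labels. Learning mice also swam, and swimming and handling cannot be told apart from learning. Per mouse, 23078094 to 49949281 reads were counted on genes. All 8 hippocampal neuron markers were measured in every group, with a summed level of 957 to 1161 CPM (counts scaled to a common library total), with the totals adjusted by edgeR's TMM method.

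A collagen molecule is a triple helix of chains, equal or from different genes, and the genes fall into classes by the structure that their product builds. Fibrillar collagens form fibers, type IV collagen forms the sheet of the basement membrane, and fibril-associated collagens sit on the surface of fibers. In the brain, type IV collagen lies around blood vessels and under the pial surface, and fibrillar collagens I and III are made by fibroblasts of the meninges and vessel walls. The choroid plexus, which secretes cerebrospinal fluid and lies next to the hippocampus, has a basement membrane of its own. In bulk tissue, fewer cells of a type and less RNA per cell cannot be told apart.

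Stretches next to the starts of 6 of these genes are shown because the genes lie head to head, or because their levels moved together from mouse to mouse in the results that follow. Promoter windows of RefSeq (GRCm38.p6, the mm10 build) were matched by symbol for 35 of the 44 collagens. Capitals mark a GC box (GGGCGG), searched on both strands together with the CCAAT box (CCAAT) and the TATA box (TATAAA). Col8a1 and Col8a2 encode the chains of type VIII collagen, and the 250 bases before their RefSeq starts lie at chr16:57754738-57754987 (minus strand) and chr4:126286544-126286793 (plus strand).
Col8a1: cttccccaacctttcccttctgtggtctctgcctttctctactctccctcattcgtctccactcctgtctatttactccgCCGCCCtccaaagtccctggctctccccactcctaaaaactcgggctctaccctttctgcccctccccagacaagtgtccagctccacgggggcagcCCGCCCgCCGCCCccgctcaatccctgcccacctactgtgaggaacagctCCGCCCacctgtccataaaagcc
Col8a2: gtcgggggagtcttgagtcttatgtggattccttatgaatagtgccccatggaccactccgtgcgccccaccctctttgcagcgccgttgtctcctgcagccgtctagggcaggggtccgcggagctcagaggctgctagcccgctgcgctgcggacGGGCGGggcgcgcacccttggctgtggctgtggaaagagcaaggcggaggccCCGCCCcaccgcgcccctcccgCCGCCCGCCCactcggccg
Each of these windows held 4 matches to the GC box, which was found in 32.7% of 32851 windows of this length, and none to the CCAAT box (33.8% of windows) or the TATA box (12.4%). The Col8a2 window takes in the first base of the gene as GENCODE places it. In Col8a2 the last pair of matches overlap each other. The windows had 60.8% and 70.0% G and C, beside a median of 52.4%.
Col4a3 and Col4a4 lie head to head on chromosome 1, with 71 bases between their starts at chr1:82586850-82586920, shown on the strand of Col4a4. The first base printed lies next to the start of Col4a3 and the last next to the start of Col4a4. The label names the genes and not this order.
Col4a4 to Col4a3: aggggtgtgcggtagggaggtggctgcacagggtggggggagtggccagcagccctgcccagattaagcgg
This stretch held none of the 3 motifs, which were found in 20.7% (GC box), 13.3% (CCAAT box) and 4.41% (TATA box) of the last 71 bases before all starts. Col4a1 and Col4a2 are transcribed away from each other and their first exons overlap by 22 bases at chr8:11312805-11312826, shown on the strand of Col4a2.
Col4a2 and Col4a1: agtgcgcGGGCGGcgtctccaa
It held 1 GC box, found in 4.09% of the first 22 bases of all starts. A match is a description of the letters and not a binding site.

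Levels were compared between genes per kilobase of exon (RPKM, from CPM and the union of annotated exons). Type IV collagen led, with Col4a2 at 12.6 ± 2.55 RPKM (SD, n = 16 mice) and Col4a1 at 9.82 ± 1.40 RPKM, the chains of the common basement membrane network. Col11a2, a fibrillar chain known from cartilage, stood at 7.17 ± 1.46 RPKM, and Col25a1, a transmembrane collagen of neurons, at 6.93 ± 0.553 RPKM. Col9a3 (5.74 ± 2.77 RPKM) and Col6a1 (3.52 ± 1.23 RPKM) completed the 6 highest, which together made up 63.9% of the summed RPKM of the 44 genes. Between each of these 6 and the next in the order, the ranges of mean ± SD overlap. Only 14 collagens reached a mean of 1 RPKM.

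By class, the 6 type IV genes held 33.2% of the summed collagen RPKM, the 11 fibrillar genes 21.1%, the 9 fibril-associated genes 20.9% and the 4 transmembrane genes 11.3%. The 6 genes of type VI, a collagen of beaded filaments, held 7.97%. The lowest of the tested genes was Col17a1, a transmembrane collagen of epithelia, at 0.0451 ± 0.0521 RPKM. The length used matters for this order: with the longest annotated coding transcript, an alternative chosen after the data were seen, Col25a1 had 13.4 RPKM and ranked first, ahead of Col4a2 at 13.0 RPKM, and 17 collagens reached 1 RPKM.

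**Figure D1:**
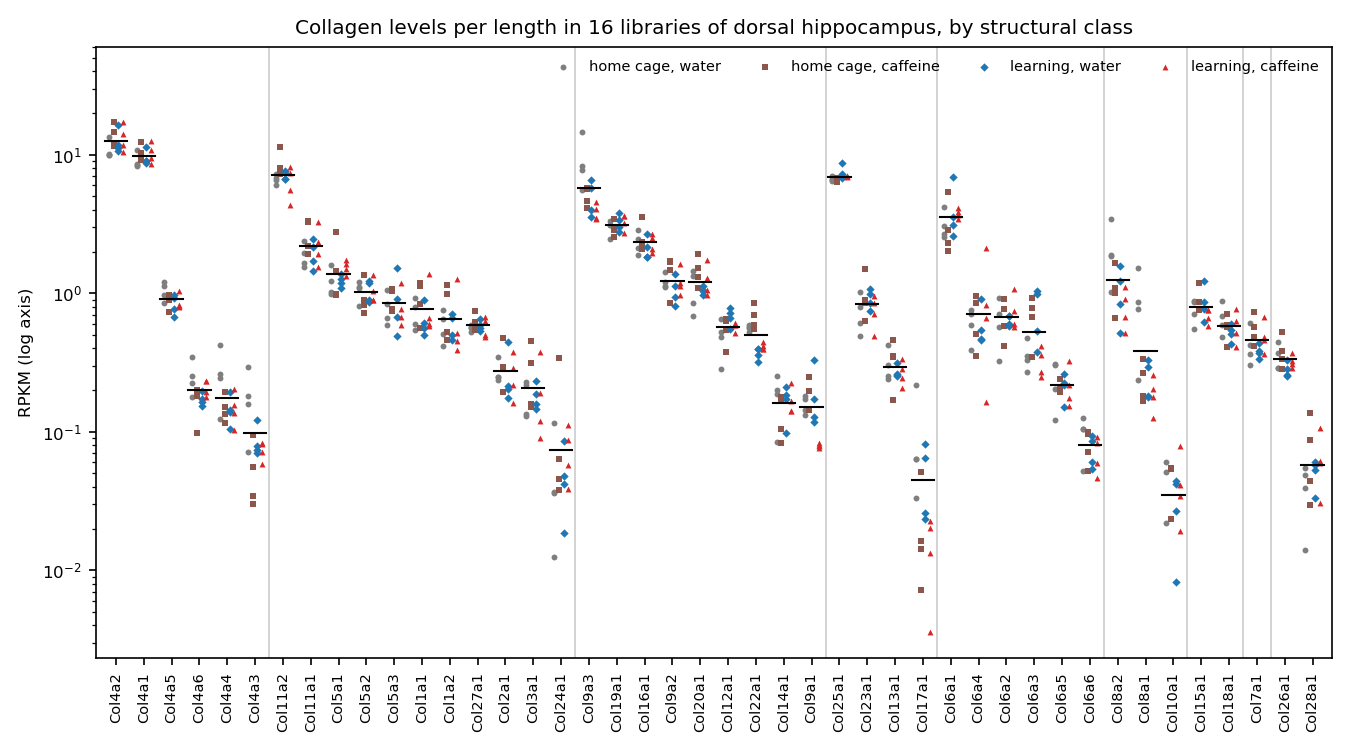
Level of each of the 44 collagens in RPKM (log axis) in every library, grouped by structural class and ordered within a class by mean. Points are mice, with symbol and color for the group, black lines are means over 16 mice, and values of 0 (Col10a1 in 2 libraries) are not drawn. Col4a2 and Col4a1 lie above all type IV partners, and the home cage water mice spread upward for Col8a1, Col8a2, Col9a3, Col4a3 and Col4a4.

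RNA levels per length of exon mostly differed between chains that share a molecule, and these ratios depend on the length used. Per length, Col4a2 stood at 1.28 ± 0.0883 times Col4a1 (SD, n = 16 mice), within a range of 1.15 to 1.44, the narrowest of the 12 ratios computed. Col1a2 stood at 0.839 ± 0.141 times Col1a1. The union of exons was 12426 bases for Col1a2 and 6563 for Col1a1, and in CPM Col1a2 was the higher in every mouse. In type VI, Col6a1 stood at 5.41 ± 1.72 times Col6a2 and 8.21 ± 4.02 times Col6a3. The lengths used were 4380 bases for Col6a1, 8326 for Col6a2 and 11963 for Col6a3. In type IX, a heterotrimer that coats cartilage fibrils, Col9a3 stood at 4.79 ± 2.30 times Col9a2 and 41.6 ± 21.3 times Col9a1. Col8a2 stood at 3.94 ± 1.09 times Col8a1, and Col11a2 at 3.43 ± 0.801 times Col11a1. In type V, Col5a1 stood at 1.35 ± 0.289 times Col5a2 (range 0.933 to 2.06) and 1.72 ± 0.541 times Col5a3 (range 0.907 to 2.61). Which chain was the higher thus changed between mice in both type V ratios. Of the minor type IV chains, which make the network of kidney and other specialized basement membranes, Col4a5 stood at 5.73 ± 1.73 times Col4a4 and 12.4 ± 7.22 times Col4a3.

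The spread between mice also differed among the collagens. The SD over all 16 mice was 7.98% of the mean for Col25a1 and 11.7% for Col27a1, and rose to 96.8% for Col8a1, 105% for Col24a1 and 115% for Col17a1. High values gathered in a few mice. Home cage water mouse 20 and home cage caffeine mouse 17 each had the highest level of 11 of the 44 collagens, and learning water mouse 24 of 5.

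Under learning against home cage, Col22a1 fell under both treatments. Col22a1 (chr15:71795795-72034227, minus strand, mm10) encodes a fibril-associated collagen known from tissue junctions such as that of muscle and tendon. It had 4.80, 5.16, 5.24 and 5.40 CPM in home cage water mice and 5.08, 5.45, 6.39 and 7.78 CPM in home cage caffeine mice. After learning it had 2.96, 3.32, 3.62 and 3.65 CPM under water and 3.65, 3.66, 3.83 and 4.11 CPM under caffeine. Every learning mouse lay below every home cage mouse.

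The log2 fold change of Col22a1 was -0.61 ± 0.13 (SE) under water, with an adjusted p of 0.0429 (edgeR's quasi-likelihood test, Benjamini-Hochberg over all tested genes, called under 0.1). Under caffeine it was -0.70 ± 0.12 (adjusted p = 0.00645). These responses differed by -0.09 ± 0.18 on the log2 scale (adjusted p = 1), and averaged over treatments the change was -0.65 ± 0.09 (adjusted p = 0.000362). Under caffeine the call held without any 1 of the 16 libraries. Under water it was lost without home cage water mouse 11 or 20 or learning water mouse 36, with adjusted p up to 0.171.

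The endothelial and mural cell marker scores moved with Col22a1. A marker score is the mean z score of log2 CPM over a list. Over the 16 mice Pearson's r was 0.67 with the 10 endothelial markers (adjusted p = 0.0491, permutation test over 301 pairs) and 0.68 with the 10 pericyte and smooth muscle markers (adjusted p = 0.0477), with Spearman's rho of 0.55 and 0.66 (adjusted p = 0.201 and 0.0889). Without the 2 mice farthest from the median score r was 0.52 and 0.79, and about the group means 0.53 and 0.42. The summed endothelial markers ran from 235 to 302 CPM in the home cage mice and from 219 to 285 CPM in the learning mice, and the pericyte and smooth muscle markers from 241 to 292 CPM and from 228 to 282 CPM. Their part in the fall of Col22a1 was not tested. With the choroid plexus score as a covariate the log2 fold change was -0.60 under water, with an adjusted p of 0.142. Col22a1 shares 16 exon bases with Gm16308 on the other strand, which had 0 or 1 read per library.

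Under water 2 collagens were called, Col22a1 and Col8a1, and both fell. The share called was 4.65% of the 43 tested collagens, beside 0.97% of all genes tested, of which 0.331% in the lower direction. Under caffeine 3 collagens were called, Col22a1, Col9a1 and Col6a3, and all 3 fell, which is 6.98% of the collagens beside 5.28% of all genes (2.13% lower). This share under caffeine is near that of all genes. The median log2 fold change of the 43 was -0.05 under water and -0.17 under caffeine, beside -0.01 over all tested genes in both comparisons. Averaged over treatments 5 collagens were called, or 11.6% beside 14.5% of all genes, with a median of -0.14 beside -0.01. These medians moved with the fit: with the choroid plexus score as a covariate they were 0.17 under water, -0.00172 under caffeine and 0.10 averaged over treatments, without home cage water mouse 20 the first was 0.07, and without home cage caffeine mouse 17 the second was -0.02. Of these, 4 fell (Col22a1, Col9a3, Col8a1 and Col8a2), beside 6.71% of all genes called lower, and Col25a1 was called higher.

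Col8a1 (chr16:57624258-57754737, minus strand), a short-chain network collagen, had 1.87, 6.03, 6.72 and 11.9 CPM in home cage water mice. It had 1.31 to 2.63 CPM in home cage caffeine, 1.40 to 2.57 CPM in learning water and 0.982 to 2.01 CPM in learning caffeine mice. Home cage water mice 8, 11 and 20 stood above all others, and mouse 6 lay among the other groups. Under water its log2 fold change with learning was -1.80 ± 0.39 (adjusted p = 0.0503) and under caffeine -0.27 ± 0.42 (adjusted p = 0.758), and the difference between the responses did not pass the test (1.53 ± 0.57, adjusted p = 1). The call under water was lost without home cage water mouse 11 or 20 or learning water mouse 33 or 36.

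Col8a2 (chr4:126286793-126314330, plus strand), the partner chain, had 4.60, 8.34, 8.51 and 15.5 CPM in home cage water mice, with the mice in the same order as for Col8a1. It had 2.96 to 7.45 CPM in home cage caffeine, 2.31 to 7.10 CPM in learning water and 2.32 to 4.98 CPM in learning caffeine mice. Averaged over treatments it fell by 0.72 ± 0.26 on the log2 scale (adjusted p = 0.0919) and Col8a1 by 1.04 ± 0.28 (adjusted p = 0.0337). Col9a3 (chr2:180597790-180622189, plus strand) had 21.5, 29.7, 32.0 and 56.1 CPM in home cage water mice and 15.9 to 22.2 CPM in home cage caffeine mice. It had 13.7 to 25.5 CPM in learning water and 13.3 to 17.7 CPM in learning caffeine mice, and fell by 0.62 ± 0.17 averaged over treatments (adjusted p = 0.0318). Without home cage water mouse 20 the change was -0.45 for Col9a3, -0.81 for Col8a1 and -0.53 for Col8a2, and the last was no longer called. When each of the 16 libraries was dropped in turn, the Col8a2 call held 5 times, and those of Col8a1 and Col9a3 held 16 times. Col9a3 shares 234 exon bases with Tcfl5 on the other strand, which had 1 to 11 reads per library.

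The choroid plexus markers moved with these 3 genes. All 12 markers, Ttr among them, were measured in every group, none at 0, with a summed level of 314 to 2405 CPM in home cage water, 199 to 516 CPM in home cage caffeine, 169 to 446 CPM in learning water and 120 to 211 CPM in learning caffeine mice. Averaged over treatments 11 of the 12 were called lower after learning, beside 6.71% of all genes. Under water 6 of the 12 were called lower (median log2 fold change -1.89), beside 0.331% of all genes. Under caffeine 0 of the 12 were called lower (median -0.61), beside 2.13% of all genes. Home cage water mice 8, 11 and 20 had the highest scores, between 1.23 and 2.25, where the other 13 mice had -1.13 to 0.54. Over the 16 mice, r with the score was 0.98 for Col8a1, 0.95 for Col9a3 and 0.93 for Col8a2 (adjusted p = 0.000502 for each, permutation test), with Spearman's rho of 0.97, 0.87 and 0.95 (adjusted p = 0.0015 for each). Without home cage water mice 8 and 20, the farthest from the median, r was 0.95, 0.88 and 0.89, and about the group means 0.96, 0.87 and 0.90. Mouse 11, at 1.23, stayed in the first of these, and all 3 mice of high score stayed in the second. Neither therefore shows the relation without these mice.

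With the choroid plexus score as a covariate, none of the 3 was called. The log2 fold change averaged over treatments became -0.01 for Col8a1, -0.12 for Col9a3 and 0.10 for Col8a2, which is a change of sign for the last. Under water that of Col8a1 became -0.25 (adjusted p = 0.579). The 3 highest scores are all in home cage water, so in this fit the score and the group share part of the difference and cannot be told apart.

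**Figure D2:**
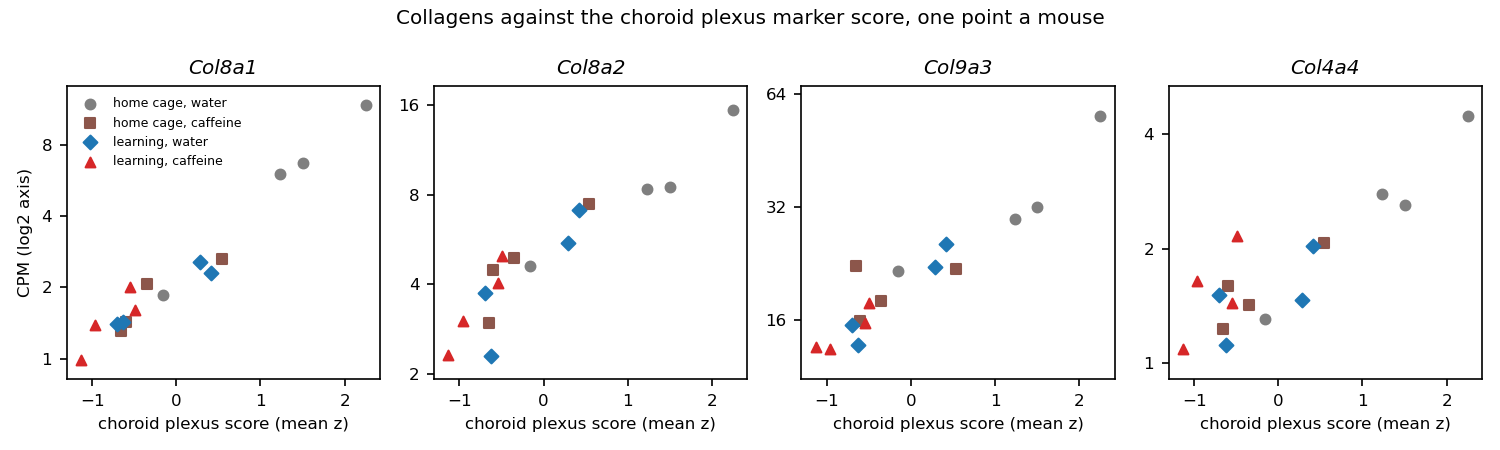
Level of Col8a1, Col8a2, Col9a3 and Col4a4 in CPM (log2 axis) against the choroid plexus marker score (mean z score of log2 CPM over 12 markers), 1 point per mouse with symbol and color for the group. The 3 home cage water mice with scores of 1.23 to 2.25 stand at the upper right in every panel, and the other mice line up at lower scores.

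Col9a1 (chr1:24177610-24252684, plus strand), the least abundant chain of type IX collagen, fell with learning under caffeine. It had 0.672, 0.724, 0.873 and 0.924 CPM in home cage water mice, 0.727, 0.738, 1.0 and 1.25 CPM in home cage caffeine mice and 0.596, 0.646, 0.879 and 1.67 CPM in learning water mice. The 4 learning caffeine mice had 0.385, 0.400, 0.409 and 0.421 CPM and lay below all 12 others. The log2 fold change was -1.17 ± 0.31 under caffeine (adjusted p = 0.0532) and 0.27 ± 0.29 under water (adjusted p = 0.742), and the difference between the responses was not called (-1.44 ± 0.42, adjusted p = 1). Its counts were low, 15 to 73 reads per library, and the call was lost in 5 of the 16 fits that left out 1 library, with adjusted p up to 0.129. The ependymal markers moved with Col9a1: r with their score was 0.69 (adjusted p = 0.0446), rho 0.65 (adjusted p = 0.0916), r without the 2 farthest mice 0.66 and r about the group means 0.72. The summed level of the ependymal markers was 45.5 to 69.9 CPM in home cage caffeine and 32.3 to 51.4 CPM in learning caffeine mice, and its part in the result was not tested.

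Col6a3 (chr1:90765923-90843971, minus strand), the long chain of type VI collagen, had opposite values under the treatments. It had 3.20, 3.92, 4.24 and 5.72 CPM in home cage water mice and 4.52, 6.43, 11.8 and 12.4 CPM in learning water mice, a log2 fold change of 1.05 ± 0.31 that did not pass the test (adjusted p = 0.169). It had 4.17, 8.05, 9.29 and 11.1 CPM in home cage caffeine mice and 2.99, 3.21, 4.26 and 4.97 CPM in learning caffeine mice, and fell by 1.07 ± 0.31 on the log2 scale (adjusted p = 0.0768). In both comparisons the ranges of the groups overlap, by a single mouse of the higher group in each. The difference between the responses was -2.12 ± 0.44, with the smallest p of the collagens there (0.000155), and was not called (adjusted p = 0.461). When genes were kept from a total of 1 count upward, instead of by edgeR's filter, it was called (adjusted p = 0.00714), as 0.027% of all genes were. With that filter Col6a3 also rose under water (1.06, adjusted p = 0.0282, beside 0.869% of genes called) and was lower under caffeine than under water after learning (-1.18, adjusted p = 0.0761, beside 0.024%). The fall under caffeine was not called with either marker score as a covariate (adjusted p = 0.106 and 0.101) or in 6 of the 16 fits that left out 1 library. None of the 7 marker scores had a correlation with Col6a3 that passed the test, the highest being 0.40 with ependyma.

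Col25a1 (chr3:130131501-130599877, plus strand), whose shed ectodomain is a component of amyloid plaques, was the only collagen called higher, and only averaged over treatments. It had 83.7 to 90.6 CPM in home cage water, 81.7 to 88.7 CPM in home cage caffeine, 88.1 to 114 CPM in learning water and 89.7 to 91.0 CPM in learning caffeine mice. The change averaged over treatments was 0.12 ± 0.05 on the log2 scale (adjusted p = 0.0998), at the edge of the threshold, and 12 of the 16 fits without 1 library lost the call. Of these fits, 1 (without home cage water mouse 8) also called Col12a1 higher (0.36, adjusted p = 0.0855) and 1 (without home cage caffeine mouse 17) Col6a1 (0.52, adjusted p = 0.0906). It was negatively related to the pericyte and smooth muscle score (r = -0.64, adjusted p = 0.0423; rho = -0.70, adjusted p = 0.0611), with r of -0.65 without the 2 farthest mice and -0.39 about the group means.

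**Figure D3:**
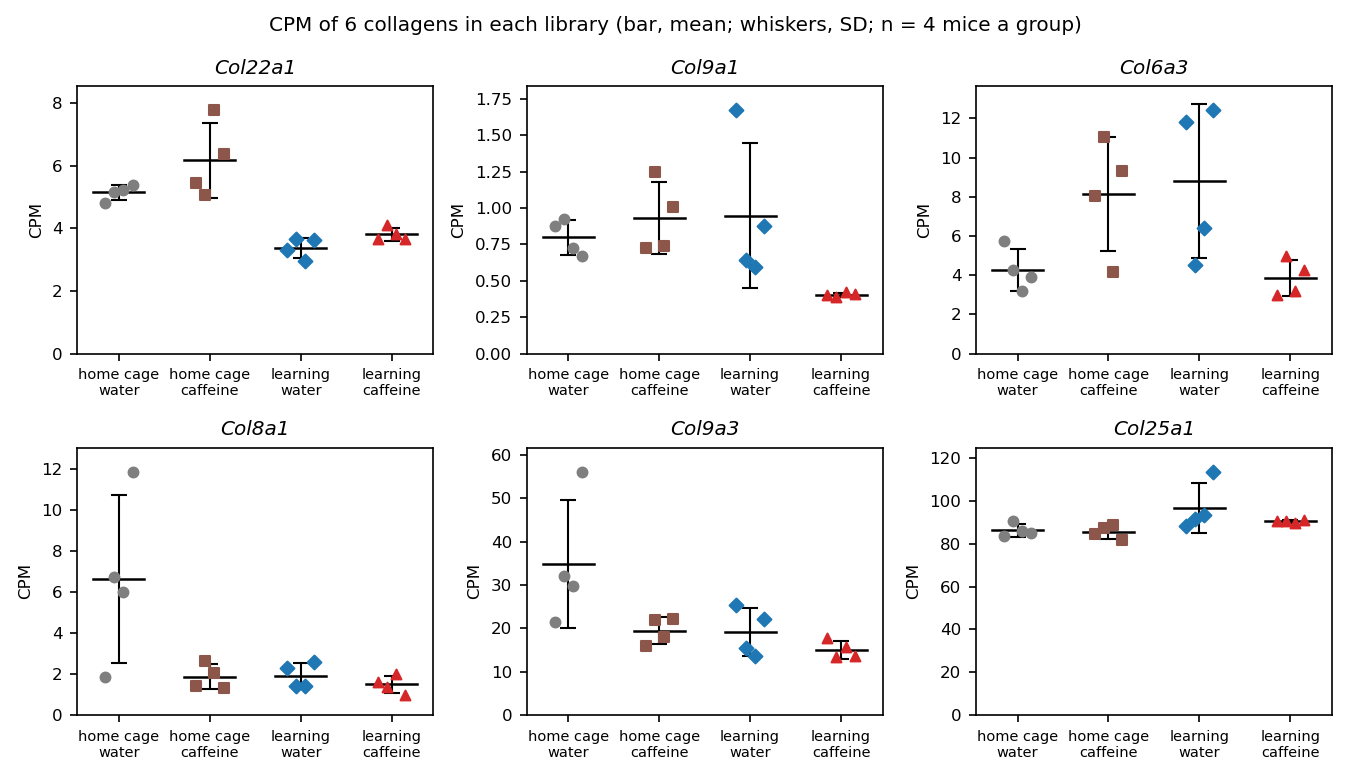
CPM of Col22a1, Col9a1, Col6a3, Col8a1, Col9a3 and Col25a1 in each library by group, with the mean as a bar and the SD as whiskers (n = 4 mice). Col22a1 separates all home cage from all learning mice, Col9a1 is lowest in the learning caffeine mice, and Col8a1 and Col9a3 are spread widely in home cage water mice.

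Caffeine against water gave no called collagen in the home cage or after learning. No gene was called in either comparison (0% of all tested genes), nor for caffeine averaged over conditions (0%) or for the difference between the learning responses (0%). In the home cage 12 of the 43 collagens had an unadjusted p under 0.05 in edgeR (27.9%, beside 3.57% of all genes), and after learning 3 did (6.98%, beside 3.93%). DESeq2's Wald test called 2 collagens in the home cage, Col4a3 and Col8a1, beside 0.09% of all genes in that test, and 0 after learning, beside 0.018%. For the difference between the responses and for caffeine averaged over conditions, 8 and 10 collagens had an unadjusted p under 0.05 in edgeR (3.63% and 4.07% of all genes), and DESeq2 called 0 collagens in both, beside 0.018% and 0.0782% of all genes.

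The 12 collagens of the home cage comparison divided into 7 with lower and 5 with higher values under caffeine. The lower ones were Col8a1, Col8a2, Col9a3, Col4a3, Col4a4, Col4a6 and Col17a1, and 6 of these 7, all but Col4a6, were among the 8 collagens whose correlation with the choroid plexus score passed the test. Of these, Col17a1 had only 154 reads over all libraries together. The higher ones were Col6a3, Col11a1, Col11a2, Col22a1 and Col4a2. With that score as a covariate 11 collagens had an unadjusted p under 0.05, all 11 higher and 0 lower, beside 6.20% of all genes. Of the 11 fibrillar genes 10 had a positive log2 fold change, with a median of 0.36 beside -0.00306 over all genes, of which 48.7% were positive. The median was 0.20 with the fibroblast score and 0.68 with the choroid plexus score as a covariate, and 10 of 11 were positive in both. Of the fibroblast markers 10 of 12 were positive (median 0.21), of the pericyte and smooth muscle markers 8 of 10 (median 0.09). Of the tested ependymal markers 6 of 6 were positive (median 0.23) and of the endothelial markers 7 of 10 (median 0.03). The principal neuron markers had 5 of 8 positive (median 0.01) and the tested thalamus markers 4 of 7 (median 0.05). Of the choroid plexus markers 0 of 12 were positive (median -1.91), and no marker of these lists was called. Their part in the collagen values was not tested beyond these fits. Home cage caffeine mouse 17 had the highest value of the group for many of them, with 77.9 CPM of Col11a2 against 49.8 to 55.0 CPM in the other 3. Without it 1 collagen was higher at an unadjusted p under 0.05 and 7 lower (3.43% of all genes passed), and 7 of the 11 fibrillar genes were positive, with a median of 0.15. Without home cage water mouse 20 9 collagens were higher and 3 lower at that p (3.91% of all genes passed), and 10 of the 11 fibrillar genes were positive. After learning, Col9a1 (-1.24 ± 0.30, adjusted p = 0.999) and Col6a3 (-1.19 ± 0.31, adjusted p = 0.999) had the smallest p of the collagens.

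**Figure D4:**
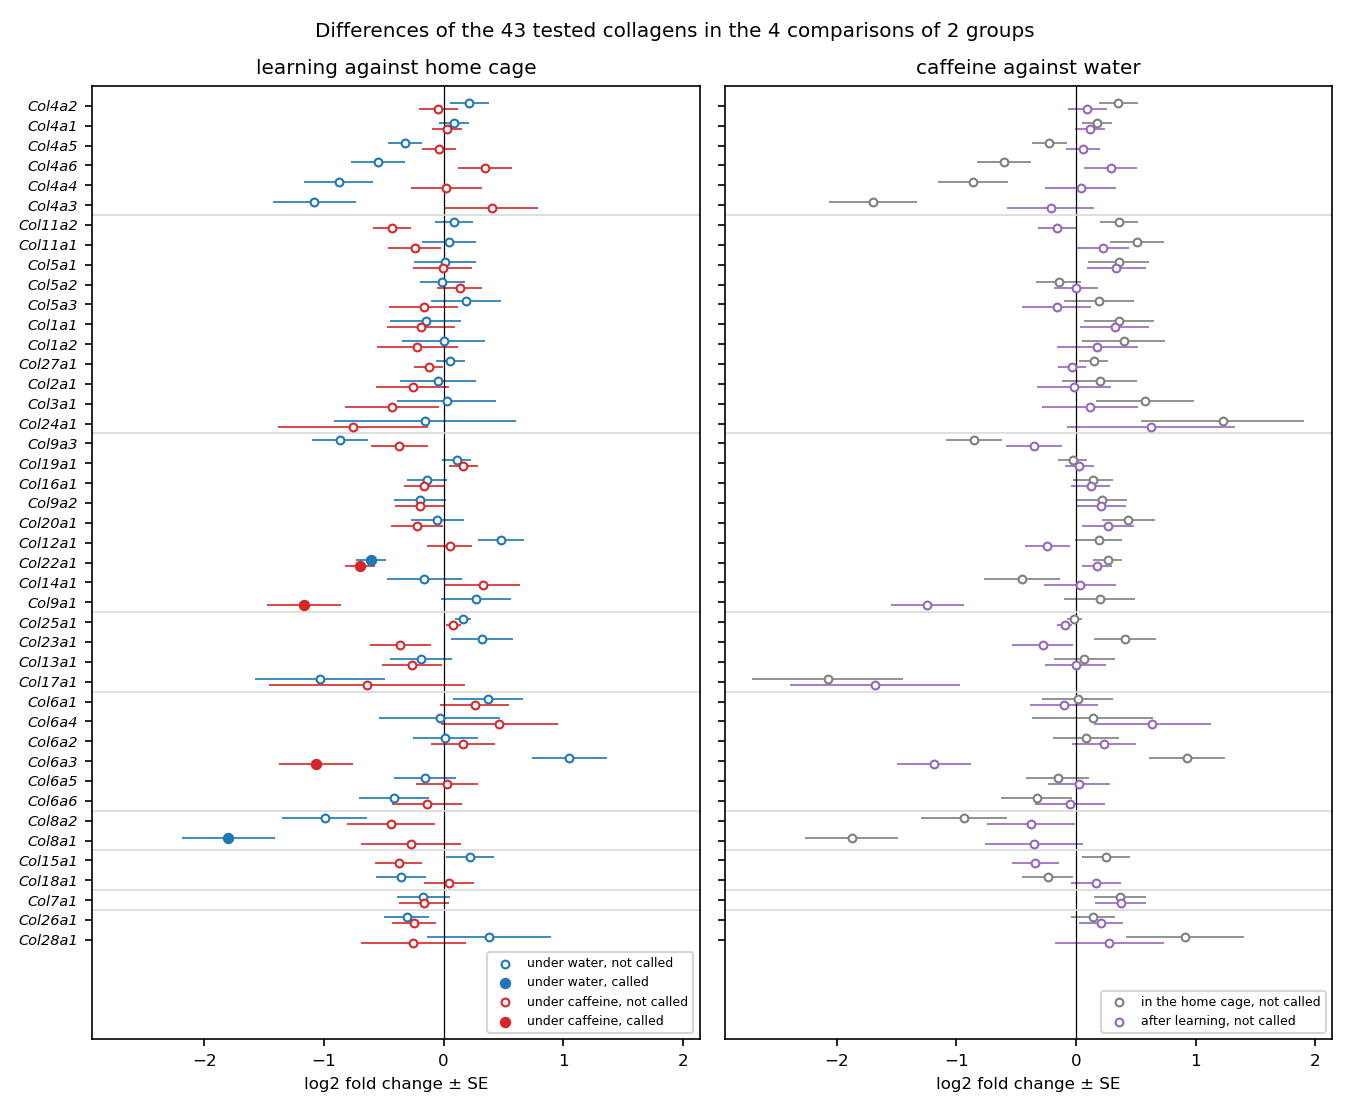
Log2 fold change ± SE of the 43 tested collagens for learning against home cage (left) and caffeine against water (right), by structural class. Filled points were called at an adjusted p under 0.1 by edgeR, open points were not. The called points are all on the left and below 0, and the 2 contrasts that use home cage water mice share the wide negative values of Col8a1, Col4a3 and Col4a4.

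The type IV genes are arranged in pairs on 3 chromosomes, and the partners of each pair were compared across mice. Col4a1 had 61.8 to 80.9 CPM in home cage water, 68.2 to 91.7 CPM in home cage caffeine, 65.6 to 85.5 CPM in learning water and 64.5 to 94.4 CPM in learning caffeine mice. Col4a2 had 65.7 to 88.3, 76.8 to 113, 70.9 to 109 and 69.4 to 114 CPM in the same groups. Their groups overlap throughout, and neither was called in any comparison. From mouse to mouse they moved together, with r = 0.97 and rho = 0.96 over 16 mice (p = 1e-05 for each, the smallest that 100000 permutations give, adjusted p = 3e-05). Without the 2 mice farthest from the median r was 0.95, and about the group means 0.98. The pair did not follow the endothelial score (r = -0.25 and -0.28, adjusted p = 0.699 and 0.658).

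Col4a3 encodes a chain of the minor network. It had 0.715, 1.58, 1.82 and 2.93 CPM in home cage water mice and 0.302, 0.341, 0.558 and 0.949 CPM in home cage caffeine mice, with ranges that overlap by mouse 6 of the first group, and a log2 fold change of -1.69 ± 0.37 for caffeine that edgeR did not call (adjusted p = 0.337). DESeq2's Wald test did (adjusted p = 0.0197). It had 0.700 to 1.21 CPM in learning water and 0.582 to 0.826 CPM in learning caffeine mice. Its counts were 7 to 109 reads per library, and it shares 563 exon bases with C430014B12Rik on the other strand, which had 1 to 11. Col4a4 had 1.31, 2.61, 2.79 and 4.46 CPM in home cage water mice and 1.09 to 2.16 CPM in the other 3 groups. Home cage water mice 8, 11 and 20 were the highest for both genes.

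Over 16 mice r between Col4a3 and Col4a4 was 0.63 (p = 0.0101, adjusted p = 0.0101) and rho 0.49 (p = 0.0541, adjusted p = 0.0541). Without the 2 mice farthest from the median it was 0.19, so the relation rests on those mice, and about the group means it was 0.44. Both followed the choroid plexus score, Col4a4 with r = 0.88 (adjusted p = 0.00086; rho = 0.70, adjusted p = 0.0611) and Col4a3 with r = 0.66 (adjusted p = 0.0632; rho = 0.36, adjusted p = 0.502). Without home cage water mice 8 and 20, the 2 farthest from the median score, r was 0.73 and 0.22, and mouse 11 with its high score remained. Col4a5 and Col4a6, on the X chromosome with 1308 bases between their starts, had r = 0.66 (adjusted p = 0.00765) and rho = 0.64 (adjusted p = 0.014), and 0.57 without the 2 farthest mice. Col4a5 had 4.52 to 8.11 CPM and Col4a6 0.776 to 2.77 CPM over the 16 mice, and neither was called.

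The collagens differed in the marker lists they followed over all mice. Of 301 correlations of 43 collagens with 7 lists, 30 passed at an adjusted p under 0.1, and 25 of these were positive. Fewer passed without the 2 mice farthest from the median score. Only collagens were correlated with the scores. The share of all genes that would pass is therefore not known, and the counts are not a trait of collagens. No list contains a collagen. Of the 12 fibroblast markers (leptomeningeal and perivascular), all were measured in every group, with a sum of 87.0 to 208 CPM. Their score was followed by 6 collagens: Col1a1 (r = 0.96), Col3a1 (r = 0.92), Col1a2 (r = 0.90), Col9a2 (r = 0.80), Col18a1 (r = 0.79) and Col13a1 (r = 0.73). Col1a1, Col1a2 and Col3a1, the chains of the classical fiber collagens, kept r of 0.84 to 0.93 without the 2 farthest mice, and none of them was called in a comparison.

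The choroid plexus score was followed by 8 collagens, which besides those above were Col4a5 (r = 0.73), Col17a1 (r = 0.73) and Col6a6 (r = 0.64). Col17a1 had only 154 reads over the 16 libraries together, and its highest level was 1.32 CPM in home cage water mouse 20. Counting error limits its r. With the ependymal score, Col5a3 had r = 0.84 (adjusted p = 0.00188), and 4 collagens passed. The score of 8 hippocampal principal neuron markers was negatively related to 4 collagens: Col5a2 (r = -0.82), Col6a1 (r = -0.78), Col23a1 (r = -0.71) and Col5a1 (r = -0.70), with r of -0.50 to -0.78 without the 2 farthest mice. The endothelial score was followed by 4 collagens, and the pericyte and smooth muscle score by 3, while Col25a1 passed with it in the negative direction. No collagen passed with the 8 thalamus markers. The markers Mia of ependyma and Gbx2 of thalamus did not pass the count filter.

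**Figure D5:**
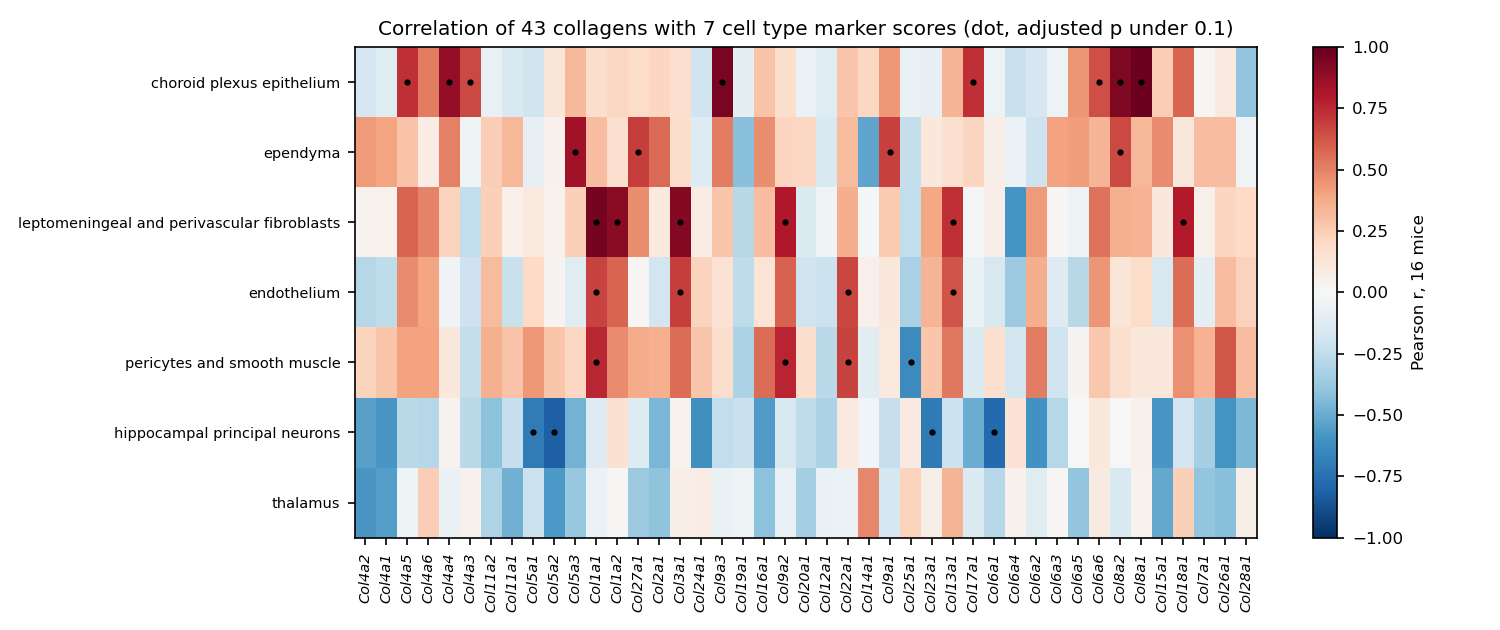
Pearson's r over 16 mice between each of the 43 tested collagens (columns, by structural class) and the scores of 7 marker lists (rows), with a dot where the adjusted p was under 0.1. The 8 dots of the choroid plexus row and the 6 of the fibroblast row mark different collagens.

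The genes that make, bind and break down collagen were taken as lists. Of 32 genes of synthesis and processing, 31 were tested, and learning averaged over treatments changed 7 of them, 3 higher and 4 lower, where 14.5% of all genes were called and 6.71% lower. P4ha1, the catalytic subunit of prolyl 4-hydroxylase, rose from 54.4 CPM to 82.6 CPM under water (0.60 ± 0.09 on the log2 scale, adjusted p = 0.00427). Under caffeine it rose from 54.7 CPM to 88.2 CPM (0.69 ± 0.09, adjusted p = 0.0009). P4ha2, its paralog, rose under caffeine from 11.6 CPM to 15.7 CPM (0.44 ± 0.10, adjusted p = 0.0305). Averaged over treatments the 3 that rose were P4ha1, P4ha2 and Adamts14, and the 4 that fell were Crtap (-0.36), Loxl3 (-0.27), Colgalt2 (-0.29) and Pcolce2 (-0.29).

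In the lists that follow, the shares of all genes called stand at 0.97% under water, 5.28% under caffeine and 14.5% averaged over treatments. Of the 10 tested receptors, 1 was called, Lair1, an inhibitory collagen receptor of leukocytes, which fell under caffeine (-0.29 ± 0.08, adjusted p = 0.0608) and averaged over treatments (-0.26 ± 0.06, adjusted p = 0.00936). Of 9 tested genes of breakdown and its inhibitors, Fap, a fibroblast protease, fell under water (-1.46 ± 0.35, adjusted p = 0.0834), where it had 1.89 CPM in the home cage and 0.690 CPM after learning. Under caffeine Mmp14, a membrane collagenase, fell (-0.38 ± 0.11, adjusted p = 0.0809) and Timp3, a metalloproteinase inhibitor, rose (0.22 ± 0.07, adjusted p = 0.0877). Averaged over treatments 3 of the 9 were called, and Mmp14, Mmp2 and Fap fell. Of 15 basement membrane partners, the laminin chain Lamc1 rose under caffeine (0.33 ± 0.08, adjusted p = 0.0402), and averaged over treatments 2 were called, Lamc1 and Lamb1, which rose. No gene of these lists was called for caffeine against water, where in the home cage Fap (-1.52 ± 0.36, adjusted p = 0.444) had the smallest p among them.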

How the data were processed

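The authors extracted RNA of the dorsal hippocampus, prepared stranded mRNA libraries and sequenced single-end reads of 50 bases. Reads were aligned to the mm10 genome by STAR, then Bowtie 2, and those with 1 alignment were counted per Ensembl gene by HTSeq-count (0.6.1p1, union mode). The authors deposited these raw counts, not normalized. Whether strand was used in counting is not given in the sources used here, so the counts of overlapping genes are uncertain.

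Gene names, positions and exon lengths came from GENCODE M21 (35247 of 35328 genes matched). Counts were tested in R 4.3.3 with edgeR 4.0.16: TMM scaling, filterByExpr, 1 mean per group over 16 libraries, quasi-likelihood tests and Benjamini-Hochberg adjustment over 17830 genes, called at an adjusted p under 0.1. The SE given for edgeR was derived from the test, as the size of the log2 fold change over the square root of F. Its median per collagen was 0.25 to 0.26 (log2) in comparisons of 2 groups. Marker scores used log2 CPM with a prior count of 2, and correlations two-sided permutation tests (100000). Alternatives were DESeq2 1.42.0, other filters, marker scores as covariates and libraries left out. The edgeR test and the permutation test of correlation were checked on simulated data, and DESeq2's Wald test was not.

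Values by library, ranges or means are given in the text for 15 chosen collagens. These are the collagens called in a contrast, the 2 of smallest p in each comparison, the 6 of highest RPKM, and type IV genes. Col4a3 and Col8a1 were included by name. The members and lists were chosen with earlier results of these data known. Chi-square values of replicate pairs were 5.26 to 30.4 per degree of freedom, so no pair agreed within counting noise.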

Additional observations from a re-analysis of the deposited data

Results flagged for a closer look

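The 15 chosen collagens gave 60 groups of 4 mice. In these, 5 values stood apart from the other 3 mice by a gap to the nearest that is large for the group's range (Dixon's critical value). By chance this occurs in about 1 group in 20. In home cage water, mouse 20 had 80.9 CPM of Col4a1 beside a next value of 64.1 CPM, and 88.3 CPM of Col4a2 beside 66.7 CPM. In learning water, mouse 24 had 85.5 CPM of Col4a1 beside 67.8 CPM, and 109 CPM of Col4a2 beside 77.2 CPM. In learning caffeine, mouse 30 had 6.98 CPM of Col4a5 beside 5.57 CPM. As Col4a1 and Col4a2 moved together across mice, 4 of the 5 values come from 2 mice.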

How the results depend on the processing

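The count of called collagens depended on the filter and the covariate. With at least 1 count in total it was 3 for caffeine in the home cage, 1 for caffeine after learning, 4 for learning under water, 1 for the difference between the responses and 3 for caffeine averaged over conditions, where 34, 8, 290, 9 and 36 of all 33354 genes were called (0, 0, 173, 0 and 0 of 17830 with edgeR's filter). With the choroid plexus score as a covariate it was 0 for learning under water and 1 for learning averaged over treatments (116 and 2176 of all genes), and with the fibroblast score 1 for caffeine in the home cage and 3 for learning averaged over treatments (11 and 2094). DESeq2's Wald test gave 2 for caffeine in the home cage (19 of all genes), and edgeR on the 8 libraries of the comparison 1 for learning under water (85). DESeq2 also called Col9a3 lower for learning under water (adjusted p = 0.0912, beside 427 of all genes). For learning under caffeine DESeq2 also called Col11a2 lower (adjusted p = 0.0935, beside 1561 of all genes). With edgeR Col11a2 was called there with at least 1 count in total (adjusted p = 0.0836, beside 793). It was also called without learning caffeine mouse 30 (adjusted p = 0.0945, beside 382). An adjusted p under 0.05 left 1 for learning under water, 1 under caffeine and 3 averaged over treatments (70, 449 and 1384 of all genes). Without 1 library each, the counts ran from 0 to 2 for caffeine in the home cage, 0 to 5 for learning under water, 1 to 3 under caffeine, 3 to 6 averaged over treatments and 0 to 1 for caffeine averaged over conditions. Of all genes, 0 to 33, 37 to 312, 382 to 1231, 1783 to 3191 and 0 to 24 were called, in the same order. Under water 0 collagens were called without home cage water mouse 11 or 20 or learning water mouse 36. In these fits 47, 38 and 37 of all genes were called. Without home cage water mouse 6, 5 collagens and 164 of all genes were called. Under caffeine 1 collagen was called without home cage caffeine mouse 9 or 17 or learning caffeine mouse 22 or 40. There 741, 406, 576 and 512 of all genes were called. With all 16 libraries 173 of all genes were called under water and 942 under caffeine. The cause was not tested. Col8a2 averaged over treatments changed sign with the choroid plexus covariate (0.10). Of the other settings for the named fold changes, none changed the sign.

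The number of correlations that passed was 47 about the group means and 14 without the 2 mice farthest from the median, and 24 to 33 without 1 library, beside 30 over all mice. For Col4a3 and Col4a4 r was 0.85 on CPM, 0.44 about the group means and 0.19 without the 2 farthest mice, and 0.38 to 0.77 without 1 library. For Col4a5 and Col4a6 it was 0.53 to 0.73 without 1 library. No paired analysis was possible because the groups share no mouse numbers. At 15 to 73 reads per library for Col9a1 and 7 to 109 for Col4a3, counting error limits both.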
